A study of Mus musculus with 12 samples.

Results

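The comparison described here set the kidneys of ischemia set A against control kidneys of the mouse, 4 against 4, and covered every gene of the deposited count table. The members were chosen by sample title alone and make up 8 of the 12 kidneys of the series. All 12 kidneys came from male C57BL/6J mice, which were 8 to 15 weeks old according to the methods. The study induced renal ischemia with a clamp that was closed from outside the body. The clamp was designed for repeated ischemia in conscious animals and also served to compare conscious with anaesthetised mice. Set A kidneys had 20 min of ischemia followed by 24 h of reperfusion. Their titles call the mice anaesthetised while their group field calls them conscious, and no anaesthesia state is assigned to them here. The controls were kidneys from nephrectomy according to the methods, although their labels carry the same treatment text as the ischemic kidneys. In the described procedure the right kidney was the one removed, and the left pedicle was clamped at least 24 h after surgery and buprenorphine, so that ischemia, earlier surgery, loss of the other kidney and side cannot be told apart. The 4 kidneys of a group are numbered in the titles without a statement on mice or batches, and the p-values measure the spread between these libraries. The remaining 4 kidneys, set B, were part of the fit and so of the scaling, the low-count filter and the estimate of the spread, and are not described here.

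When renal blood flow stops and returns, the tubular epithelium bears most of the damage. Proximal tubule cells reabsorb most of the filtered load, depend on mitochondrial oxidation and have little capacity for glycolysis. Surviving cells flatten, give up transport functions, take on features of the developing nephron and later divide to cover the denuded basement membrane.

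Each control library held between 20364386 and 39155807 counts in genes, and each set A library between 16814285 and 44793350. The detection floor of 3 counts, which covers counting error only, corresponded to between 0.0661 and 0.181 CPM (a gene's count scaled to the size of its library) in these 8 libraries. Between 224 and 470 of the 23420 genes of a library held 1 to 10 counts, fewer than the 361 to 633 in its fullest step of 10 counts, which began at 11 or 21. B2m, a gene of nearly all nucleated cells, was listed at 0 in 4 of the 8 kidneys and never above 43 counts, so a listed 0 does not show that a gene was silent. Kidneys of 1 group differed beyond sampling noise, and for no pair did the chi-square statistic over its degrees of freedom fall under 52.9. The first principal component of log2 CPM (34.65% of the variance) separated the groups. Replicate 4 of set A, which had the lowest total, lay apart on the second (14.2%), at 115 against -59.3 to 33.2 for the other 7 kidneys. Results that rest on this kidney are given with and without it.

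Of the 11664 genes tested, 2599 differed between set A and control at an adjusted p below 0.05 (22.3%), all adjusted p-values being from edgeR's quasi-likelihood F-test with Benjamini-Hochberg adjustment. Set A was higher for 1229 of them (10.5%) and lower for 1370 (11.7%). The 8 kidneys fell into 2 groups without overlap of CPM for 3293 genes (28.2%). The median log2 fold change was -0.02 over all genes, 1.11 over the genes called higher and -1.21 over those called lower. A change of at least 2-fold was reached by 683 higher and 839 lower genes, and a change of at least 64-fold by 65 and 53. Without replicate 4 of set A, 1049 genes were called higher and 1272 lower, and these included 1005 and 1209 of the genes called with it.

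**Figure D1:**
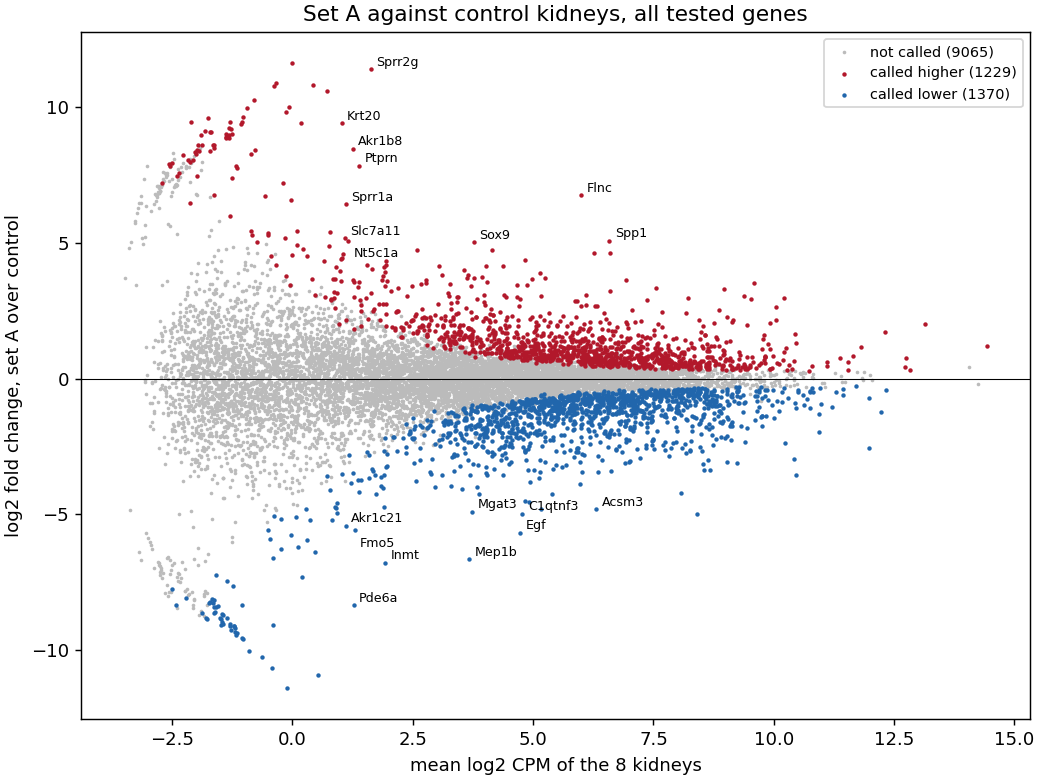
Fitted log2 fold change of set A over control (vertical axis) against the mean log2 CPM of the 8 kidneys (horizontal axis) for 11664 genes. Grey points are genes not called, red points the 1229 genes called higher and blue points the 1370 genes called lower, with leading rises and falls by the rule for named genes labelled.

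The libraries were also redistributed as a whole. Genes called higher took 17.5% ± 0.368 of a control library and 35.5% ± 1.38 of a set A library (SD, n = 4), while genes called lower went from 36.4% ± 0.586 to 17.2% ± 1.03. These shares describe the calls and were not tested, since the same counts chose the genes. The 100 most abundant genes of each kidney took 28.7% ± 0.461 of a control library and 32.0% ± 0.649 of a set A library (SD, n = 4, two-sided exact permutation test, p = 0.0286, the smallest that 4 against 4 allows). With any single kidney left out the difference stayed between 3.03 and 3.48 percentage points, and 3 kidneys against 4 cannot go below p = 0.0571 in the exact permutation test. Rn45s, the ribosomal RNA precursor, was counted in this share and was the top gene of set A replicate 4, at 2.96% of its counts. The share was not computed without Rn45s.

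**Figure D2:**
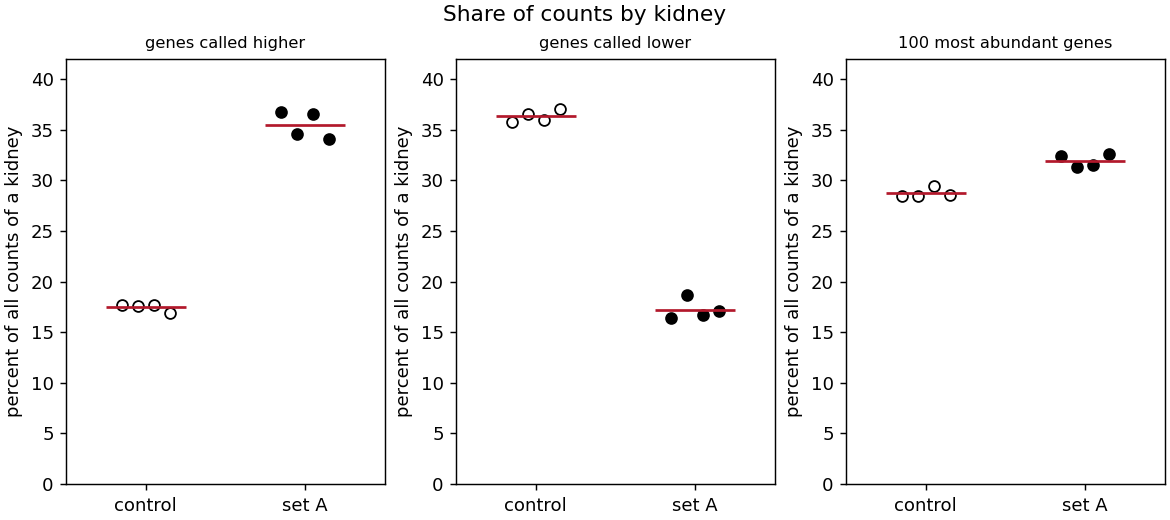
Percent of all counts of a kidney (vertical axis) held by the genes called higher, by the genes called lower and by the 100 most abundant genes, with 1 point per kidney and bars at the group mean. In the 4 control kidneys genes called lower held between 35.8% and 37.1%, and in the 4 set A kidneys genes called higher held between 34.1% and 36.8%.

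Among the genes that took the most counts in either group, Actb, Myh9, Ahnak, Pabpc1 and Eif5a rose and Gpx3 and Hspa8 fell. Actb, cytoplasmic actin, had 14931, 15357, 14625 and 13822 CPM in the control kidneys and 39849.5, 32324, 37745 and 24885 CPM in the set A kidneys. All set A values were above all control values, and replicate 4 was the lowest of set A (log2 fold change 1.20, standard error 0.13, edgeR adjusted p = 6.43e-07). Fold values given here and further on are the fitted ones. Myh9, the heavy chain of non-muscle myosin, rose 3.32-fold and Ahnak, a giant scaffold protein at the plasma membrane, 4.03-fold. Pabpc1, which binds the poly(A) tail of messages, rose 1.71-fold and Eif5a, a translation elongation factor, 1.34-fold. Gpx3, the glutathione peroxidase that the kidney secretes into plasma, fell 2.33-fold and Hspa8, the constitutive cytosolic chaperone, 1.62-fold. Eif4g2, a translation initiation factor that took the most counts of all genes in the 4 control kidneys, did not pass the test (log2 fold change -0.19, standard error 0.11, edgeR adjusted p = 0.256). Rn45s, the ribosomal RNA precursor, which poly(A) selection should deplete, had 13439.5, 15473, 16192 and 15088 CPM in the controls and 21276, 13893, 16228 and 30004 CPM in set A. The groups overlapped and replicate 4 of set A was the highest of the 8 kidneys (edgeR adjusted p = 0.113), and the gene passed the test without set A replicate 2 (edgeR adjusted p = 0.0294).

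The 10 largest rises among genes with an average of at least 1 on the log2 CPM scale included Sprr2g, Krt20, Spp1, Flnc and Slc7a11. Sprr2g, a small proline-rich protein of the cornified envelope of skin, was at or under 3 counts in all control kidneys and reached 79.97, 68.3, 89.2 and 157 CPM in set A, at least 949-fold higher when the group mean is set against the mean floor of 3 counts per library, as for all such bounds. The Sprr2 genes are close copies and their counts can be split among them. Krt20, a keratin of gut and urothelial lining, had 0.240, 0.0260, 0 and 0 CPM in the controls and 28.3, 38.6, 26.7 and 56.5 CPM in set A (log2 fold change 9.39, standard error 0.71, edgeR adjusted p = 8.20e-09). Spp1, osteopontin, a secreted phosphoprotein of the matrix, had 19.2, 15.5, 13.8 and 18.2 CPM in the controls. In set A it reached 510.1, 464, 553 and 725 CPM, and every set A kidney was far above every control (log2 fold change 5.08, standard error 0.20, edgeR adjusted p = 3.11e-12). Flnc, the filamin of striated muscle, rose from 6.30 ± 1.85 CPM to 673 ± 155 CPM (SD, n = 4), or 108-fold. Slc7a11, the cystine importer that feeds glutathione synthesis, had 15.8, 18.3, 16.3 and 16.2 CPM in set A against at most 0.926 CPM in a control kidney. Akr1b8, an aldo-keto reductase (8.46), Ptprn, a receptor-type phosphatase of secretory granules (7.84), and Nt5c1a, a cytosolic 5′-nucleotidase (5.07), are given by their log2 fold changes. Sprr1a reached 55.8, 35.5, 44.1 and 8.01 CPM in set A, and replicate 4, the lowest, was still above the highest control at 1.52 CPM.

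The 10 largest falls included Egf, Mep1b, Inmt, Fmo5 and Acsm3. Egf, the precursor of epidermal growth factor made in the thick ascending limb and distal convoluted tubule, had 226, 211, 194 and 191 CPM in the controls and 5.46, 6.76, 1.87 and 1.87 CPM in set A, without overlap (log2 fold change -5.68, standard error 0.59, edgeR adjusted p = 4.84e-07). Mep1b, the beta chain of the brush border protease meprin, went from 137 ± 18.04 CPM to 1.43 ± 0.937 CPM (SD, n = 4). Inmt, which methylates indoles such as tryptamine, went from 73.4 ± 8.02 CPM to 0.572 ± 1.12 CPM and Fmo5, a flavin monooxygenase, from 23.1 ± 6.44 CPM to 0.449 ± 0.533 CPM. Acsm3, a mitochondrial ligase of medium-chain fatty acids, fell 28.2-fold, and C1qtnf3, a secreted protein of the adiponectin superfamily, 31.2-fold. Mgat3, which adds the bisecting sugar to N-glycans, had 2.28, 3.55, 1.83 and 2.11 CPM in set A against at least 59.3 CPM in every control. Also among the largest falls were Akr1c21, a hydroxysteroid dehydrogenase whose reads may be shared with related Akr1c genes (log2 fold change -5.41), and Pde6a, the rod phosphodiesterase subunit (-8.35).

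**Figure D3:**
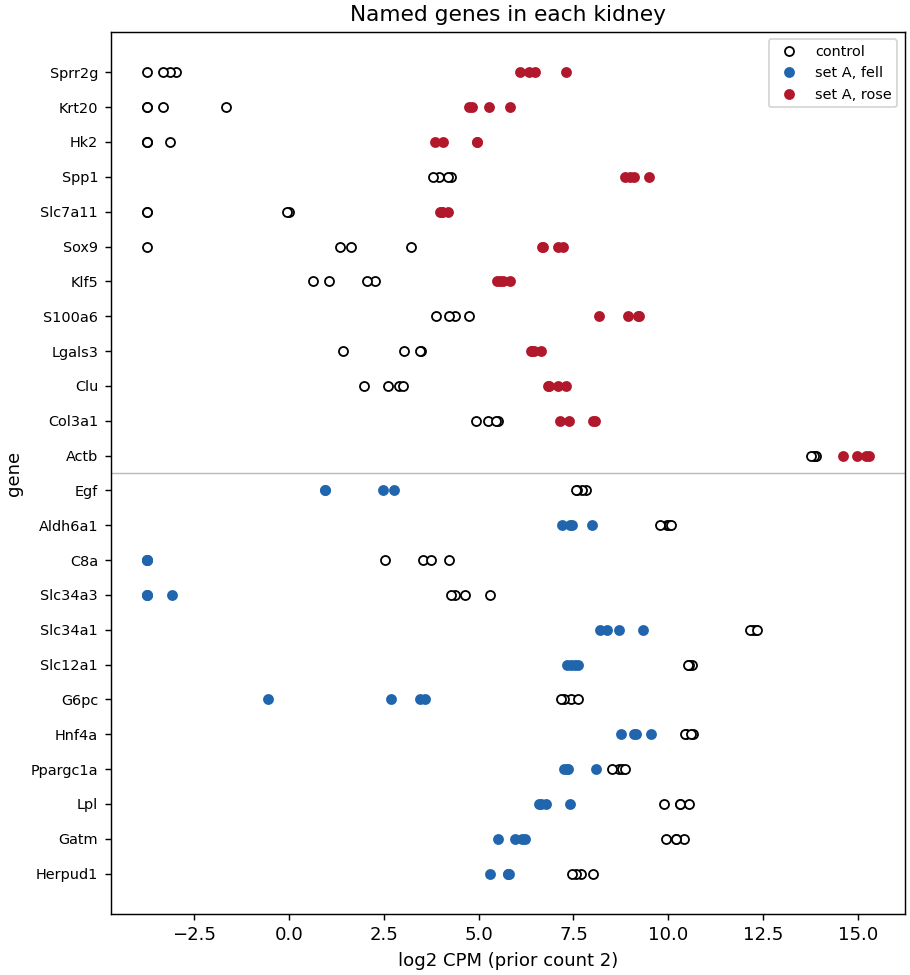
Values of 24 named genes in each kidney as log2 CPM (horizontal axis, computed with a prior count of 2), with control kidneys as open and set A kidneys as filled points. The upper 12 genes rose and the lower 12 fell, and for each of the 24 the 4 open points lie apart from the 4 filled points.

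Some genes crossed the detection floor. In 38 genes all control kidneys were at or under 3 counts and all set A kidneys above it, and 33 of these were called higher. The opposite held for 48 genes, of which 38 were called lower. The same counts chose these genes and gave the calls, so most calls follow from the choice. Of all tested genes 10.5% were called higher and 11.7% lower. Hk2, the inducible hexokinase of glycolysis (chr6:82725025-82774454, GRCm38), had at most 1 count in a control kidney and 31.03, 31.01, 16.7 and 14.4 CPM in set A, at least 224-fold higher. Sprr2f (chr3:92365187-92366442) reached 42.7, 20.02, 20.8 and 45.03 CPM, at least 309-fold higher. Gm3776, a glutathione transferase of the alpha class (chr9:78257129-78269166), reached 11.2, 17.3, 18.1 and 11.5 CPM, at least 139.7-fold, although its reads may be shared with Gsta1. Among the genes that crossed downward, C8a, a chain of the terminal complement complex (chr4:104815679-104876487), had 11.5, 5.72, 18.6 and 13.4 CPM in the controls and 0 counts in all set A kidneys, at least 105-fold lower. Slc34a3, the phosphate cotransporter NaPi-IIc of the proximal tubule (chr2:25228897-25234270), went from 39.4, 20.8, 19.4 and 24.8 CPM to at most 1 count, at least 222-fold lower. Akr1c14 was at least 64.2-fold lower, Car3, a cytosolic carbonic anhydrase, at least 47.6-fold and Myh7, the slow muscle and cardiac myosin heavy chain, at least 63.5-fold.

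The promoter windows of 3 of these genes are shown. They were taken from the called genes with the largest log2 fold changes in each direction whose window held a searched motif. That each window shown holds a match therefore follows from the choice. Each window runs from 250 bases before to 50 bases after the start that the promoter table uses, on the gene's strand, 5′ to 3′, from RefSeq on GRCm38.p6, at chr6:82774405-82774704 (minus strand) for Hk2, chr3:92364937-92365236 (plus strand) for Sprr2f and chr4:104876349-104876648 (minus strand) for C8a. For C8a that start lies inside the gene span given above and not at its outer end. Capitals mark matches to 7 short motifs that were searched on both strands. The AP-1 motif was spelled TGANTCA and the cyclic AMP response element (CRE) was spelled TGACGTCA. The box of that name near the start of transcription was spelled TATAAA, and the HNF1 half-site was searched as GTTAAT. The E-box was searched with the letters CACGTG, the GC box with the letters GGGCGG, and the last motif was the CCAAT box.
Hk2: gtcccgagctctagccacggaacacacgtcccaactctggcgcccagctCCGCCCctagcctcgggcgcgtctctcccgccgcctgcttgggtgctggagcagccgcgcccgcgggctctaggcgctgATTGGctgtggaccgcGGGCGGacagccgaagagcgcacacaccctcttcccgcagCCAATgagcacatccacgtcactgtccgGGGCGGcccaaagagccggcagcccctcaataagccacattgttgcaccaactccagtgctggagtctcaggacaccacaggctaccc
Sprr2f: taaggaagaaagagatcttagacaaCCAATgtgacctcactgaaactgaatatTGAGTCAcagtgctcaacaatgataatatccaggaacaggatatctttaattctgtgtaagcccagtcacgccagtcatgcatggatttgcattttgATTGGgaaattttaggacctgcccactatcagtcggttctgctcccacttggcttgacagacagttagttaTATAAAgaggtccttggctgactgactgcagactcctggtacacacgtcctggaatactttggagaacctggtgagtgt
C8a: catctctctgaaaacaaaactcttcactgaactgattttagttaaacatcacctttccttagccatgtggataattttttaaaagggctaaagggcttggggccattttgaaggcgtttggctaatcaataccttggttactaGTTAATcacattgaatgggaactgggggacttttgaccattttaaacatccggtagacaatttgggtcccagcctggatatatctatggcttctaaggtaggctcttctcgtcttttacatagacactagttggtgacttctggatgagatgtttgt
The Hk2 window held 3 GC boxes and 2 CCAAT boxes. The Sprr2f window held an AP-1 match at -197, a TATA box at -29 and 2 CCAAT boxes. In the C8a window the only match was an HNF1 half-site at -107. Positions are counted from the start of the window's own table. A match is a run of letters and not a measured binding site.

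The share of windows with each motif is given for all tested genes and for the called genes, without a test. The table held a window for 8663 of the 11664 tested genes, 904 of those called higher and 1044 of those called lower. AP-1 was present in 4.62% of the tested, 5.09% of the higher and 4.12% of the lower genes. For the TATA box these shares were 6.78%, 9.18% and 7.95%, and for the HNF1 half-site 4.32%, 3.76% and 5.94%. The GC box stood in 66.2%, 72.7% and 64.4%, and 35.9% of all 27025 windows of the table held it. E-boxes were found in 10.4%, 9.62% and 11.97%, CRE in 3.16%, 3.10% and 2.39%, and CCAAT in 37.5%, 35.4% and 38.9%.

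Along the nephron, every marker of the proximal tubule list was called lower in set A, as were 6 of 10 in the list of its straight part. Markers of the collecting duct principal cell did not pass the test. In whole-kidney RNA, fewer cells of a type and less RNA per cell cannot be told apart. All 15 proximal tubule markers were called lower, against 11.7% of all genes tested, with a median log2 fold change of -2.74. Their summed level was 9417 to 10459 CPM in a control kidney and 1161 to 1849 CPM in a set A kidney. The median of the members in the 4 set A kidneys, as log2 deviations from the control mean, was -3.00, -2.47, -3.40 and -3.01. Slc34a1, the main apical phosphate cotransporter, had 4846, 5088, 4557 and 5184 CPM in the controls and 413, 643, 332 and 293 CPM in set A. Every set A kidney was below every control (log2 fold change -3.55, standard error 0.29, edgeR adjusted p = 2.45e-08). Gatm, the first enzyme of creatine synthesis, fell 18.7-fold and Slc27a2, a fatty acid transporter and acyl-CoA synthetase, 8.20-fold. Of the 10 markers of the straight part (median -3.58), 4 were not called, and the highest log2 fold change was 0.30. The other 6 were called lower, a count that was 3 without control replicate 2 or without control replicate 3. Among them Cyp4b1, a fatty acid hydroxylase, went from 3849 ± 554 CPM to 501 ± 131 CPM and Napsa, a lysosomal aspartic protease, from 112 ± 18.7 CPM to 13.6 ± 4.68 CPM (SD, n = 4).

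More distal segments were affected gene by gene. In the thick ascending limb, which dilutes the urine, 5 of 12 markers were called lower and none higher (median -1.08), where 11.7% of all tested genes were called lower. Slc12a1, its apical sodium, potassium and chloride cotransporter, had 1499.95, 1569, 1508 and 1468 CPM in the controls and 159.9, 173, 188 and 197 CPM in set A (log2 fold change -3.07, standard error 0.31, edgeR adjusted p = 3.09e-07). Umod, uromodulin, the defining protein of that segment, had 118, 111, 114 and 116 CPM in the controls. In set A it had 109.9, 96.5, 129.5 and 177 CPM, and the groups overlapped (edgeR adjusted p = 0.76). Cldn10, a paracellular sodium pore, fell 6.39-fold and Casr, the calcium-sensing receptor, 2.69-fold. In the distal convoluted tubule 6 of 11 markers were called lower. Calb1, a calcium buffer, fell 3.39-fold, Slc8a1, the basolateral sodium and calcium exchanger, 2.65-fold and Wnk1, a kinase of salt transport, 1.77-fold. Slc12a3, the thiazide-sensitive cotransporter, had a log2 fold change of -0.22 with a standard error of 0.14 (edgeR adjusted p = 0.327). None of the 11 tested principal cell markers was called by edgeR, DESeq2 or limma-trend or had an unadjusted p under 0.05, with log2 fold changes from -0.53 to 1.21. Aqp2, the vasopressin-regulated water channel, had 17.3, 8.47, 13.4 and 12.8 CPM in the controls and 15.96, 20.2, 9.91 and 16.01 CPM in set A. In intercalated cells, which secrete acid or base, 4 of 12 markers were called lower. These included Slc4a1, the chloride and bicarbonate exchanger (-2.13 on the log2 scale), and Rhcg, an ammonia channel (-1.41).

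**Figure D4:**
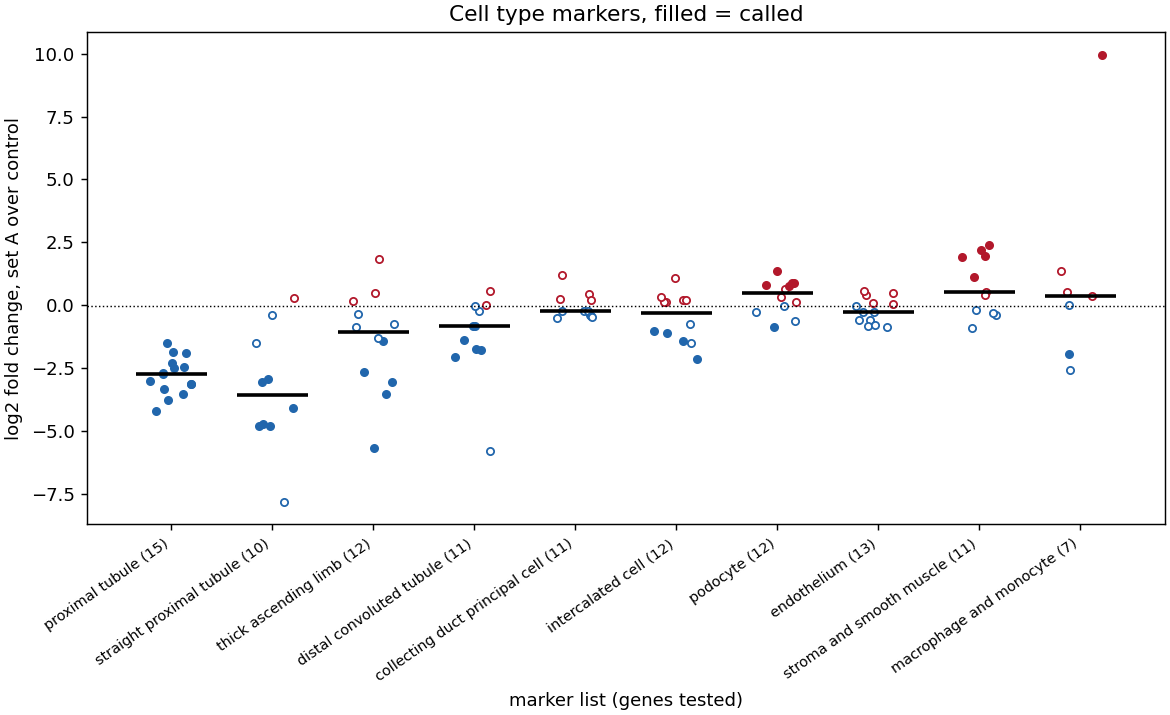
Log2 fold change of set A over control (vertical axis) for each tested marker of the nephron segments and of other cell types (horizontal axis), with called genes as filled and other genes as open points, bars at the median of a list and a dotted line at the median of all genes. All 15 proximal tubule points are filled and below 0, and none of the 11 principal cell or 13 endothelial points is filled.

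Among podocyte and stromal markers rises outnumbered falls. Of the 12 podocyte markers 5 were called higher against 10.5% of all genes, and 1 lower. Leaving out control replicate 3, control replicate 4 or set A replicate 3 left 2 of these rises, and leaving out control replicate 2 or set A replicate 4 left 3. Cd2ap, an adaptor at the slit diaphragm that tubules also express, rose 2.60-fold, and Podxl, the sialomucin of foot processes, 1.83-fold. Clic5, a chloride channel-like protein of foot processes, fell 1.84-fold. Of the 11 stromal markers 5 were called higher and none lower, and the calls were Col1a1, Col1a2, Col3a1, Acta2 and Tagln. The other 6, Pdgfrb, Pdgfra, Myh11, Rgs5, Des and Postn, were not called, and log2 fold changes in the list went down to -0.89. The list's median was 0.53, with single set A kidneys at 0.94, 0.85, 1.37 and 0.06. Col3a1, a fibrillar collagen, had 45.9, 38.1, 43.7 and 30.2 CPM in the controls and 269, 168, 259.8 and 142 CPM in set A. All set A kidneys exceeded all controls, with replicate 4 the lowest of set A (log2 fold change 2.41, standard error 0.23, edgeR adjusted p = 1.75e-07). Acta2, smooth muscle actin, rose 3.80-fold and Tagln, its companion transgelin, 4.60-fold. Without replicate 4 of set A, 6 stromal markers were called higher. None of the 13 endothelial markers was called by edgeR or DESeq2, while limma-trend called 1 and 3 had an unadjusted p under 0.05 in edgeR.

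Few markers of infiltrating or neighbouring cells were measurable, and their calls stand beside 10.5% of all tested genes called higher and 11.7% lower. Of 15 macrophage and monocyte markers 7 passed the low-count filter. Csf1r, the receptor of macrophage colony-stimulating factor, had 40.7, 53.3, 62.7 and 51.5 CPM in the controls and 17.9, 7.96, 18.1 and 10.2 CPM in set A (log2 fold change -1.94, standard error 0.39, edgeR adjusted p = 0.000816). Cd14, the co-receptor of lipopolysaccharide, was at 0 in the controls and had 11.04, 2.05, 3.61 and 1.93 CPM in set A, at least 44.8-fold higher (edgeR adjusted p = 0.00164). Of the 12 neutrophil markers 2 were tested and Lcn2, a siderophore-binding protein also made by injured tubules, was called higher, with 17.7, 4.45, 9.38 and 20.5 CPM in set A and at most 1 count in a control. S100a8, the defining neutrophil gene, was listed at 0 in all 8 kidneys. Of the lymphocyte list only Cd3e was tested. It was called lower, a call lost under each single kidney left out. The tested members of the erythroid, adipocyte and skeletal muscle lists, 1 each, were not called, and no adrenal marker passed the filter. Among 4 tested liver genes Cyp2e1, which the proximal tubule also expresses, was called lower and Fgb, fibrinogen beta, higher. Of 3 tested urothelial markers 1, Krt5, was called higher, and the list's median was -0.69. The call of Fgb was lost without control replicate 2, 3 or 4 and without set A replicate 2, 3 or 4, and in the fit of only the 8 kidneys (edgeR adjusted p = 0.099).

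Genes of an immature or repairing epithelium made up the list with the largest share of rises among those with at least 10 tested members. Of 18 tested members 11 were called higher and 2 lower, against 10.5% and 11.7% of all tested genes (median 1.85, single set A kidneys 2.24, 1.92, 2.08 and 1.79), and without replicate 4 of set A the counts were 11 and 1. Sox9, a transcription factor of nephron progenitors and repairing tubule, had 2.45, 9.30, 0 and 3.03 CPM in the controls and 149, 103, 136 and 102 CPM in set A (log2 fold change 5.02, standard error 0.65, edgeR adjusted p = 9.03e-06). Clu, clusterin, an extracellular chaperone, had 7.34, 8.03, 3.90 and 6.06 CPM in the controls and 159, 115, 114 and 136 CPM in set A (log2 fold change 4.37, standard error 0.24, edgeR adjusted p = 1.32e-10). Krt8, a keratin of simple epithelium, rose from 235 ± 21.1 CPM to 1918 ± 144 CPM (SD, n = 4), with 2014, 2067, 1805 and 1784 CPM in the single set A kidneys. Havcr1, the injury molecule KIM-1, and Vim, vimentin of mesenchymal and regenerating cells, lie outside the rule for named genes and were chosen after their values were seen. Havcr1 had 12.8, 3.98, 14.01 and 14.99 CPM in set A against at most 1 count in a control, and Vim had 193, 176, 174 and 132 CPM in the controls and 972, 696, 863 and 462 CPM in set A.

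Among Kruppel-like and related factors 4 of 15 were called higher and 4 lower, where 10.5% of all tested genes were called higher and 11.7% lower. Klf5, a factor of proliferating epithelium, had 2.01, 4.78, 4.05 and 1.49 CPM in the controls and 57.02, 50.2, 47.4 and 44.4 CPM in set A (log2 fold change 4.01, standard error 0.36, edgeR adjusted p = 7.60e-08). Klf6 rose 7.21-fold and Klf4 5.03-fold. Klf9, which glucocorticoids induce, fell 1.82-fold. Of the ETS factors 4 of 19 were called higher and 2 lower, the falls near the background, and 2 were higher without control replicate 3, set A replicate 3 or set A replicate 4. Without set A replicate 4 the ETS counts were 2 higher and 3 lower. Etv4, a target of fibroblast growth factor signalling, rose from 0, 2.39, 1.77 and 0.993 CPM to 23.04, 14.8, 11.3 and 29.8 CPM. Of 34 developmental factors 9 were called higher and 5 lower, and the counts fell to as few as 4 and 1 with a kidney left out (4 higher and 4 lower without set A replicate 4, 5 higher without control replicate 2, 3 or 4, 1 lower without control replicate 4, 2 lower without set A replicate 1 or 3, 3 lower without control replicate 1 or 3 or set A replicate 2). Sox4 rose 3.79-fold and Hoxb6 1.96-fold.

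Among nuclear receptors falls outnumbered rises. Of 38 tested, 15 were called lower against 11.7% of all genes and 1 higher. The list's median log2 fold change was -0.62, with single set A kidneys at -0.48, -0.63, -0.64 and -0.67. Hnf4a, the receptor that maintains proximal tubule identity, had 1426, 1597, 1401 and 1540.3 CPM in the controls and 431, 754, 565 and 550.4 CPM in set A (log2 fold change -1.37, standard error 0.22, edgeR adjusted p = 0.000109). Esrra and Esrrg, estrogen-related receptors that drive mitochondrial genes, fell 2.87-fold and 2.25-fold. Vdr, the vitamin D receptor, fell 2.24-fold. Nr4a2, an immediate early receptor and the single call in the other direction, was chosen after its value was seen and had a log2 fold change of 1.24. Without replicate 4 of set A, 13 receptors were called lower and 1 higher.

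In the male mouse kidney androgen raises a set of proximal tubule genes. Of 17 tested genes that are higher in male than in female kidney 12 were called lower in set A, against 11.7% of all tested genes, and none higher (median -2.94, and -5.03 with the replicate block). Of these 12, 5 are also members of the proximal tubule or straight proximal tubule lists and were counted there. The count was 5 without control replicate 3 and 6 without control replicate 2, control replicate 4, set A replicate 1 or set A replicate 3. Odc1, the first enzyme of polyamine synthesis, went from 1016 ± 342 CPM to 333 ± 56.1 CPM (SD, n = 4) and Cyp2e1 from 267 ± 47.4 CPM to 43.1 ± 11.6 CPM. Kap, the kidney androgen-regulated protein, is likewise a member and was chosen after its values were seen. It had 36.3, 39.3, 53.5 and 38.2 CPM in the controls and 8.19, 4.19, 2.73 and 3.73 CPM in set A.

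In the lists of feedback on growth signalling and of surface adhesion, most members were not called, and the background was 10.5% of all tested genes called higher and 11.7% lower. Dusp5, a phosphatase that switches off ERK in the nucleus, had 4.89, 4.52, 3.20 and 3.27 CPM in the controls and 59.9, 50.6, 99.3 and 67.9 CPM in set A (log2 fold change 4.13, standard error 0.34, edgeR adjusted p = 2.09e-08). Spry2, a Sprouty inhibitor of receptor tyrosine kinases, rose 2.30-fold, and Errfi1, which restrains the EGF receptor, fell 1.95-fold. Of the 15 tested genes of that feedback list 4 were called higher and 2 lower. Lgals3, a galectin of epithelium and macrophages, had 11.1, 10.9, 2.62 and 8.05 CPM in the controls and 83.4, 84.96, 87.8 and 99.3 CPM in set A (log2 fold change 3.44, standard error 0.37, edgeR adjusted p = 7.35e-07). Epha2, an ephrin receptor, rose 7.98-fold, Cdh6, the cadherin of the early proximal tubule, 2.93-fold, Cdh1, E-cadherin, 2.23-fold, and the desmosomal plaque protein Dsp 2.72-fold. Cd9, a tetraspanin, rose 3.02-fold and Tspan3 fell 2.72-fold. Over the lists of cadherins and connexins, ephrins and Eph receptors and tetraspanins, 4 of 22, 2 of 15 and 3 of 24 were called higher and 1, 1 and 2 lower. The Eph and tetraspanin shares of rises were near the background, and the 3 tetraspanins became 5 without control replicate 2 or set A replicate 4. Notch1 and Notch2, receptors of that pathway, rose 1.66-fold and 1.46-fold among 4 calls of 20 tested. Of the serpins and other protease inhibitors 5 of 17 were called higher and 2 lower, and 3 were higher without control replicate 3.

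Calls in the lists of nuclear transport and tRNA charging were mostly rises, and those in the list of folding in the endoplasmic reticulum were falls. Of 49 nuclear pore genes and karyopherins 13 were called higher and 1 lower (median 0.44), against a background of 10.5% and 11.7%. Kpnb1, importin beta, had 371, 354, 312 and 331 CPM in the controls and 684, 720.1, 771 and 673 CPM in set A (log2 fold change 1.06, standard error 0.11, edgeR adjusted p = 4.15e-07). Ipo7 and Ipo5, importins that carry ribosomal proteins among other cargo, rose 2.05-fold and 1.91-fold. Of 22 cytosolic aminoacyl-tRNA synthetases 5 were called higher and none lower (median 0.56). Vars, which charges the tRNA of valine, went from 50.9 ± 4.57 CPM to 147 ± 18.5 CPM (SD, n = 4). Among DEAD-box helicases, which unwind RNA, 5 of 41 were called higher, close to the background. Ddx39 rose 2.68-fold and Ddx21, a nucleolar helicase, 2.24-fold. In contrast 12 of 29 genes of endoplasmic reticulum folding and the unfolded protein response were called lower and none higher (median -0.51), and the count was again 12 without replicate 4 of set A. Herpud1, which the unfolded protein response induces, had 207, 191, 176 and 259 CPM in the controls and 39.1, 55.1, 55.2 and 55.4 CPM in set A (log2 fold change -2.02, standard error 0.17, edgeR adjusted p = 3.11e-08). Pdia3, a disulfide isomerase of glycoproteins, fell 2.08-fold, Calr, calreticulin, 2.04-fold and Hsp90b1, the chaperone GRP94, 1.75-fold.

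In the lists of mitochondrial dynamics and autophagy falls outnumbered rises, where 10.5% of all tested genes were called higher and 11.7% lower. Of 27 genes of mitochondrial dynamics, mitophagy and cristae 11 were called lower and none higher (median -0.80). Ppargc1a, the coactivator of mitochondrial biogenesis, had 419, 367, 436 and 461 CPM in the controls and 162, 153, 164 and 274 CPM in set A (log2 fold change -1.16, standard error 0.21, edgeR adjusted p = 0.000317). Phb, prohibitin, fell 3.25-fold and Immt, mitofilin of the cristae, 1.76-fold. Of the autophagy machinery 10 of 34 were called lower and 3 higher, and 6 were lower without control replicate 3. Gabarapl1, which tethers cargo to the forming autophagosome, had 1139, 1046, 907 and 954 CPM in the controls and 189.5, 262, 218 and 249 CPM in set A (log2 fold change -2.14, standard error 0.15, edgeR adjusted p = 4.04e-09). Sqstm1, the autophagy receptor p62, rose 1.72-fold, and Nbr1, a related receptor, fell 1.77-fold. Of 37 primary cilium genes 5 were called lower and 1 higher (median -0.66), the share of falls being near the background, with Ift122, a subunit of the retrograde transport complex, 3.34-fold and Pkd2, polycystin 2, 1.91-fold lower.

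Lipid and ion handling showed single large changes within lists in which most members were not called. Their counts stand beside 10.5% of all tested genes called higher and 11.7% called lower. Plin2, the coat protein of lipid droplets, had 10.3, 10.1, 11.5 and 10.8 CPM in the controls and 111, 138, 135 and 166 CPM in set A (log2 fold change 3.69, standard error 0.20, edgeR adjusted p = 1.32e-10). Lpl, lipoprotein lipase, had 945, 1493, 1273 and 1260.1 CPM in the controls and 110.3, 169, 100.004 and 97.4 CPM in set A (log2 fold change -3.38, standard error 0.19, edgeR adjusted p = 1.51e-10). In that list 1 of 20 genes was called higher and 5 lower, among them Dgat2, which makes triglyceride, 2.94-fold lower. Of 29 potassium and chloride channels 7 were called lower and 2 higher. Kcnk5, the TASK-2 channel of the proximal tubule, went from 499 ± 63.7 CPM to 132 ± 22.3 CPM and Kcnma1, the large-conductance calcium-activated channel, from 76.3 ± 8.85 CPM to 22.8 ± 4.73 CPM (SD, n = 4). Of 22 zinc and copper transporters 6 were called lower and 1 higher, with Slc31a1, the copper importer, 3.07-fold lower. Slc6a6, the taurine transporter, fell 2.30-fold and Slc38a2, an amino acid transporter that hypertonicity induces, rose 2.55-fold. Ugt8a, which makes galactosylceramide, fell 4.74-fold. Pde4c, a cyclic AMP phosphodiesterase, fell 4.65-fold and Pde3b, which insulin signalling activates, rose 3.69-fold. Bmp1, a procollagen protease, rose 4.26-fold and Id4, an inhibitor of helix-loop-helix factors, fell 3.17-fold. None of the 17 tested interferon-stimulated genes was called by edgeR, DESeq2 or limma-trend, and 2 had an unadjusted p under 0.05 in edgeR, with log2 fold changes between -1.34 and 1.13. The calls of the remaining lists stand beside 10.5% of all tested genes called higher and 11.7% called lower, and several of their shares were near this background. Coat proteins of COPI and COPII vesicles and their cargo receptors counted 3 higher and 8 lower of 33, where leaving out control replicate 1 left 1 higher and leaving out control replicate 2 or 4 or set A replicate 1 or 3 left 5 lower. Mitochondrial protein import counted 5 lower of 31, and 3 under every single kidney left out except set A replicate 2. Sphingolipid enzymes counted 3 higher and 4 lower of 25, with 1 higher without control replicate 1 or 2 or set A replicate 2 or 3. Osmolyte uptake counted 3 higher and 1 lower of 10, with 1 higher without control replicate 4, and phosphodiesterases and adenylyl cyclases 3 higher and 2 lower of 25, with 1 higher without set A replicate 4. The BMP family, activins and their antagonists counted 5 higher and 6 lower of 29, with 3 lower without control replicate 2 or 4 and 2 lower without set A replicate 1. Histone demethylases, deacetylases and sirtuins counted 5 higher and 1 lower of 33, and mucins, trefoil factors and galectins 3 higher of 7.

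**Figure D5:**
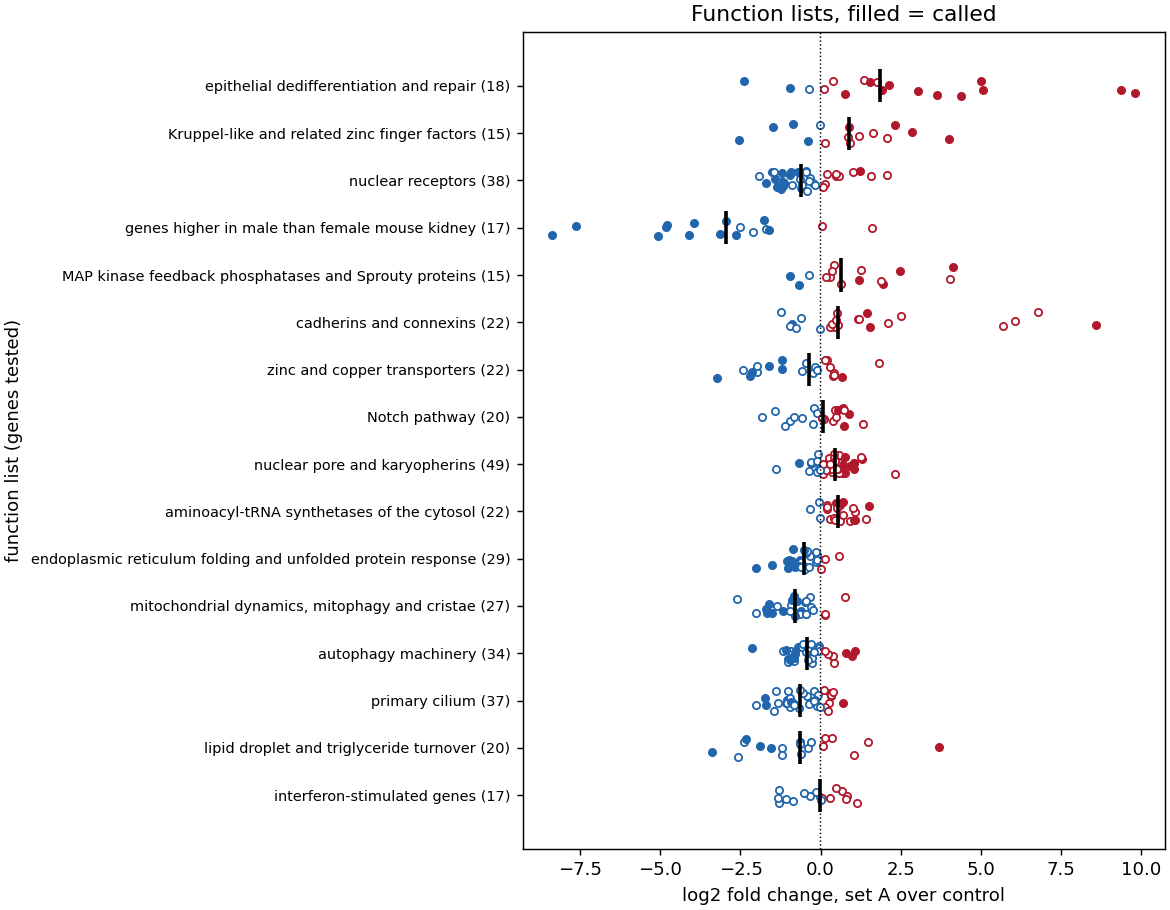
Log2 fold change of set A over control (horizontal axis) for the tested members of 16 function lists (vertical axis), with called genes as filled and other genes as open points, a black bar at the median of each list and a dotted line at the median of all genes. Of these lists in the reported fit, dedifferentiation has the highest median at 1.85 and the genes higher in male kidney the lowest at -2.94.

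Gene families gathered by the letters of their symbols, 148 of them with at least 10 tested members, are given beside the 10.5% of all tested genes called higher and the 11.7% called lower. Keratins (Krt) had the largest share of rises, with 9 of 13 called higher and none lower, followed by annexins (Anxa), calcium-dependent membrane binders, with 6 of 10 and none lower. Anxa2 rose from 231 ± 71.96 CPM to 2671 ± 258 CPM (SD, n = 4), or 11.6-fold, and Krt19 14.9-fold. Regulatory subunits of the proteasome (Psmd) were called higher in 7 of 14, ribosomal proteins of the large subunit (Rpl) in 19 of 43 and of the small subunit (Rps) in 15 of 41, with none lower in the 3 families. Psmd11 rose 1.96-fold and Rpl12 2.43-fold, and ribosomal protein genes share reads with their many processed pseudogenes. Collagens (Col) were higher in 12 of 32 and lower in 1, integrin alpha chains (Itga) in 4 of 11 and 1, and myosins (Myo) in 7 of 18 and 3. Itga5, the alpha chain of the fibronectin receptor, had 19.7, 17.8, 29.7 and 23.5 CPM in the controls and 234, 99.9, 214 and 114 CPM in set A (log2 fold change 2.87, standard error 0.29, edgeR adjusted p = 3.04e-07). Itga3, an alpha chain of laminin receptors, rose 4.12-fold.

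The families with the largest shares of falls are set against the 11.7% of all tested genes called lower. Aldo-keto reductases (Akr) were called lower in 6 of 12, with Akr1b8 called higher, oxysterol-binding proteins (Osbpl) in 5 of 10 and aldehyde dehydrogenases (Aldh) in 8 of 17 with 2 higher. Akr7a5 fell 5.07-fold and Osbpl8 4.41-fold. Aldh6a1, the methylmalonate semialdehyde dehydrogenase of valine breakdown, had 1009, 881, 1033 and 1074 CPM in the controls and 169.6, 254, 146 and 175 CPM in set A (log2 fold change -2.43, standard error 0.16, edgeR adjusted p = 2.06e-09). Lipid transporters of the Abca family and hydroxysteroid dehydrogenases (Hsd) were lower in 4 of 10 each, complex I subunits (Ndufa) in 5 of 14 and the autophagy genes named Atg in 5 of 15 with 1 higher. Symbols beginning with Atp, mostly pumps and ATP synthase subunits, were lower in 22 of 68 and higher in 3. Cytochromes P450 (Cyp) had the same share of falls, with 11 of 34 lower and 2 higher. Atp11a, a phospholipid flippase, fell 5.82-fold and Atp5b, the catalytic beta subunit of ATP synthase, 2.09-fold.

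Genes that moved together were in places neighbours on the chromosome. With a position for 11615 of the tested genes (99.6%), 6 runs of at least 4 neighbouring tested genes were called higher and 8 called lower, and 3 and 0 of at least 5. The longest was the epidermal differentiation cluster of chromosome 3 (chr3:90612894-92573790), where S100a6, Sprr2f, Sprr2g, Sprr2h, Sprr1a and Ivl were called higher. S100a6, a calcium-binding protein, had 26.7, 20.9, 14.5 and 18.7 CPM in the controls and 601, 588, 489 and 289 CPM in set A (log2 fold change 4.61, standard error 0.24, edgeR adjusted p = 8.74e-11). Ivl, involucrin of the cornified envelope, was at 0 in the controls and had 13.2, 1.84, 3.81 and 4.03 CPM in set A. Sprr2h had 9.04, 0.513, 4.89 and 0 CPM in set A, and its call was lost without control replicate 2 or 4 or set A replicate 1 or 3, with limma-trend and with the replicate block. Without it no stretch of at least 4 neighbours remains there. On chromosome 15 (chr15:101412403-102032026) the run was made of Krt7, Krt5, Krt4, Krt8 and Krt18, of which Krt5, a keratin of basal and stratified epithelium, rose from 9.38 ± 2.80 CPM to 117 ± 43.6 CPM (SD, n = 4). A run on chromosome 16 (chr16:92391951-93810588) held Rcan1, Runx1, Cbr1, Cbr3 and Dopey2. Runx1, a hematopoietic transcription factor also found in injured epithelium, rose 8.50-fold, while the calls of Rcan1 were lost under each single kidney left out and those of Dopey2 under each except control replicates 3 and 4. Rcan1 was also not called without the low-count filter or with the replicate block, and without these 2 genes 3 neighbours remain there. The other runs of rises lay around Shisa4 on chromosome 1, in the Hoxb cluster on chromosome 11 and over the Gsta genes on chromosome 9, the last with shared sequence. The runs of falls were 4 genes each and lay on chromosomes 4 (3 runs), 8, 12, 14 and 15 (2 runs). They included Cpt2, Podn, Scp2 and Echdc2 on chromosome 4 and the copies Cyp2d9, Cyp2d12 and Cyp2d26 on chromosome 15, whose reads may be shared.

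The set A kidneys also differed among themselves. Among the called genes with an average of at least 3 on the log2 CPM scale, the 5 with the largest spread within set A were G6pc, Dnajc12, Tmem174, Scrn2 and Tnc. Tnc, tenascin C, a matrix protein of wounds, had 186, 54.9, 173 and 18.7 CPM in set A against 4.27, 3.27, 5.55 and 3.34 CPM in the controls (log2 fold change 4.73, standard error 0.63, edgeR adjusted p = 1.07e-05). Replicates 1 and 3 were high and replicates 2 and 4 lower, and all 4 exceeded every control. G6pc, the glucose-6-phosphatase that releases glucose, had 0.603, 10.9, 6.39 and 11.98 CPM in set A against at least 144 CPM in every control (log2 fold change -4.50, standard error 0.54, edgeR adjusted p = 3.00e-06). Dnajc12, a co-chaperone, had 2.32, 7.23, 0 and 5.72 CPM in set A and 42.6, 44.1, 43.9 and 47.3 CPM in the controls. Scrn2, a secernin, went from 37.9 ± 13.96 CPM to 9.02 ± 8.77 CPM (SD, n = 4) and Tmem174, a membrane protein of the proximal tubule, from 44.02 ± 9.38 CPM to 8.84 ± 7.53 CPM, a call that was lost without set A replicate 3.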

How the data were processed

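Poly(A) RNA of whole kidneys was sequenced from stranded TruSeq libraries as single reads on an Illumina HiSeq instrument. The authors aligned the reads to mm10 with STAR and deposited raw counts per gene made with HTSeq, whose versions and strand setting are not given in the sources used here. From these counts, CPM with TMM scaling and edgeR 4.0.16 quasi-likelihood F-tests (Benjamini-Hochberg adjusted p below 0.05, low-count filter of 10 counts with a total of 15) were computed in R 4.3.3 in a fit of all 12 kidneys. Replicates varied with a common biological CV of 0.762 in that fit. The procedure was tested on simulated data. SE are those of the fitted log2 fold change. Members and gene lists were chosen with earlier results of these data known. Genes were named as the 10 largest rises and falls, up to 4 called members of each of 50 lists, the most abundant genes, genes crossing the floor, leading members of symbol families and neighbour runs, and the 5 most variable called genes; some genes and 1 list are not reported here. Umod, Slc12a3, Aqp2, B2m and S100a8 lie outside this rule and were chosen after their values were seen. Promoter windows and gene positions were taken from RefSeq on GRCm38.p6. Alternatives were other scalings, filters and tools, a replicate block and single kidneys left out.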

Additional observations from a re-analysis of the deposited data

Results flagged for a closer look

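In 25 of 321 groups of 4 kidneys (7.79%), the highest or lowest kidney lay far from the other 3, measured as its gap to the nearest kidney over the range of the group. Chance flags about 1 in 20 groups. In the controls, replicate 1 was lowest for Acsm3 (gap over range 0.950), Atp11a (0.831) and Cyp4b1 (0.845) and highest for Krt20 (0.892). Control replicate 2 was highest for Cd3e (0.899), Havcr1 (1) and Slc31a1 (0.842). Control replicate 3 was highest for Gsta1 (1), Hk2 (1) and the share of the 100 most abundant genes (0.867). Control replicate 4 was highest for Akr1b8 (0.886), Lcn2 (1) and Sprr1a (1) and lowest for Pdia3 (0.837). In set A, replicate 1 was lowest for Herpud1 (0.981) and replicate 3 highest for Inmt (0.981). Set A replicate 2 was highest for Atp11a (0.914), Myh7 (1), Osbpl8 (0.843) and Slc34a3 (1) and lowest for Echdc2 (0.886). Set A replicate 4 was highest for Calb1 (0.899), Pde6a (0.967) and Ppargc1a (0.911) and lowest for Ddx39 (0.907). A ratio of 1 means that the other 3 kidneys held the same value, which for Hk2, Havcr1, Lcn2 and Slc34a3 was 0 against a single count.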

How the results depend on the processing

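Over the 16 alternatives, between 1020 and 1533 genes were called higher and between 1122 and 1514 lower, and each count stayed within 1.5 times that of the reported fit. DESeq2 called 1533 and 1514, limma-trend 1330 and 1504, and a fit of only the 8 kidneys 1367 and 1492. With single kidneys left out the counts ran from 1020 to 1136 higher and from 1122 to 1273 lower. With the replicate number as a block, 1157 and 1334 genes were called, of which 1118 and 1284 were called without the block. The same-numbered kidneys did not deviate together (Pearson's r across genes of -0.03, -0.03, -0.01 and 0.002), and no kidney correlated best with its own number, so the numbers are not taken to pair the kidneys. The difference in the share of the 100 most abundant genes ran from 3.03 to 3.48 percentage points with single kidneys left out, at p = 0.0571 in the exact permutation test, the smallest that 3 against 4 allows, so that the loss of the call follows from the fewer kidneys. For the 10 most abundant genes it was 4.01 (p = 0.0286, exact permutation test). The log2 fold change of Umod, which was not called, reversed to -0.054 without set A replicate 4, ran up to 0.27 without set A replicate 2, and the cause was not tested. Of the 157 called genes in the text, 151 were called in every alternative that gave an adjusted p. Most of them were picked for a large change or a small p in the reported fit, which favours this. Over all called genes, a single kidney left out kept between 79.9% and 88.2% of the calls of a direction. Of 781 refitted list medians 46 moved by more than the spread between kidneys, among them that of the genes higher in male kidney, which was -5.03 with the replicate block and between -3.40 and -2.60 otherwise. The alternative based on mitochondrial transcripts was not run, as none of these symbols is in the table used here. Depth limits statements on genes near 3 counts.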
